A study of Mus musculus with 2 samples.

Results

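The granulosa cells described here were cells of the ovary that held messenger RNA of anti-Müllerian hormone (Amh) and lay under a limit on 6 mitotic genes. They were chosen by a rule on counts per cell. A cell had to hold at least 2000 CPM of Inha, at least 3 molecules (UMIs) of Amh and at least 1 of Igfbp5, where CPM is a count divided by the total and scaled to 1000000. Its Inhba and Cyp11a1 each had to lie under 2000 CPM, and the summed mitotic genes Top2a, Ccnb1, Cdc20, Ube2c, Plk1 and Hmmr under 500 CPM. Cells with fewer than 500 genes, or with over 25% of their counts from mitochondrial genes, were left out. Of the 29623 that stayed, 1092 met the rule, 427 in the PS-MP library and 665 in the control library. They are called Amh-positive cells below.

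The cells came from ovaries of female ICR mice, profiled by bead-based single-cell RNA sequencing. The PS-MP library was made from mice given 1 mg of polystyrene microplastics (PS-MP) of 0.1 µm in 100 µL by daily gavage for 35 days, starting at 3 weeks of age. The control library was made from mice given ddH2O over the same time, and both groups were 8 weeks old at collection. The mice carried no engineered allele that the labels name. A number of 16 mice is stated without saying whether it holds per group or for both, and no cell could be tied to a mouse. Each group was therefore 1 library, and no test between the groups was possible. The intervals given are 95% intervals that cover counting error only, and the spread between mice is unknown.

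Granulosa cells surround the oocyte and divide as the follicle grows. Amh is a ligand of the TGF-beta family that granulosa cells of small growing follicles secrete, and it slows the recruitment of primordial follicles and dampens the response to follicle-stimulating hormone. Its level is high in preantral and small antral follicles and drops in the mural cells of large antral follicles, which instead make Inhba, Cyp19a1 and the receptor for luteinizing hormone. In larger follicles the cumulus cells that stay next to the oocyte keep Amh under the influence of oocyte-derived ligands.

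Both libraries gave the Amh-positive cells similar depth. The 427 PS-MP cells summed to 4547967 UMIs with a median of 10043 UMIs and 3682 genes per cell, and the 665 control cells summed to 7798106 UMIs with a median of 10886 UMIs and 3862 genes. After each cell was thinned to 4000 UMIs, the median was 2043 genes in both libraries. Median mitochondrial content was 11.2% in PS-MP and 11.3% in control cells. Doublets were called in 9 PS-MP (2.11%) and 14 control (2.11%) Amh-positive cells. The libraries shared 3 cell barcodes.

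The rule fixed Amh and Igfbp5, so their levels are given as a description. Summed over the Amh-positive cells, Amh stood at 566.6 CPM in the PS-MP and 650.9 CPM in the control library. Igfbp5, a secreted binding protein of insulin-like growth factors, stood at 1080 and 1086 CPM in the same order. Neighbouring cells showed how sharp the limits were. Among granulosa cells under the mitotic and Inhba limits, 115 PS-MP and 161 control cells held 2 Amh UMIs together with Igfbp5 and lay just outside, and 103 and 121 held exactly 3 and lay just inside. Another 384 PS-MP and 544 control cells had at least 3 Amh UMIs but no Igfbp5 UMI. Igfbp5 was detected in 52.7% of PS-MP and 55% of control cells with at least 3 Amh UMIs, against 16.9% and 16.6% of those with no Amh UMI.

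Few Amh counts were found in cells of other types. An Amh UMI was found in 0.465% to 1.79% of PS-MP and 1.97% to 2.32% of control stromal, endothelial and macrophage cells, which should lack the gene, and 3 or more UMIs were found in 0 of these PS-MP cells and in 1 control stromal cell. Median depth of those classes ran from 5329 to 8581 UMIs per cell, below that of the Amh-positive cells.

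The markers of the label that the rule did not use were Slc18a2, Stra6 and Wnt4. The cells and lists were chosen with earlier results of these data known, so these markers describe the cells and are no independent check. Slc18a2, the vesicular monoamine transporter, had a UMI in 97% of PS-MP and 99.2% of control Amh-positive cells, against 5.77% to 10.2% of PS-MP and 8.03% to 9.41% of control stromal, endothelial and macrophage cells. Stra6, the cell-surface receptor that takes up retinol from its binding protein, had a UMI in 80.8% of PS-MP and 71.9% of control cells. Wnt4, a secreted ligand needed for ovarian development, had a UMI in 51.5% of PS-MP and 43.3% of control cells. All 3 were also higher in the Amh-positive cells than in the remaining granulosa cells. Wnt4 had a UMI in 20.3% of PS-MP and 16.9% of control stromal cells too, so it did not single out granulosa cells.

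For comparison, 2 other populations of granulosa cells under the mitotic limit were used. The Inhba-high cells had at least 2000 CPM of Inhba and numbered 1683 in the PS-MP and 2271 in the control library. The other low-Inhba cells lay under that limit without meeting the rule and numbered 3930 and 3872. Of 7967 genes that reached 20 CPM in a population, 79 (0.992%) were at least 2-fold higher in the Amh-positive cells than in both comparison populations in both libraries, and 64 (0.803%) were at least 2-fold lower. These counts describe the cells, since the rule drew on some of the genes.

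Of 16 markers of preantral and cumulus granulosa cells, 10 were among the genes at least 2-fold higher, and 0 were among the lower ones. The rule itself used Amh and Igfbp5 from this list. Slc18a2 reached 1047 CPM in PS-MP and 1317 CPM in control Amh-positive cells, against 455.6 and 592.8 CPM in the other low-Inhba cells and 106 and 74.6 CPM in the Inhba-high cells. Stra6 reached 279 and 181 CPM in PS-MP and control Amh-positive cells, and no more than 72.9 CPM in either comparison population. Wnt4 reached 113.7 CPM in PS-MP and 78.9 CPM in control Amh-positive cells, and at most 35.7 CPM in the others. The 3 genes shared the same order in both libraries, highest in Amh-positive, lower in other low-Inhba and lowest in Inhba-high cells. Gatm, which catalyses the first step of creatine synthesis, Col18a1, a basement membrane collagen, and Wt1, a zinc-finger transcription factor of the gonad, had the same order. Amhr2, the type II receptor for Amh, stood at 330 CPM in PS-MP and 333.5 CPM in control Amh-positive cells, 1.41-fold and 1.5-fold above the other low-Inhba cells of the same library. Kitl, the ligand that granulosa cells present to the oocyte's Kit receptor, Npr2, the receptor for C-type natriuretic peptide, and the BMP receptor Bmpr1b did not reach the 2-fold limit. Bmpr1b was lower in Amh-positive cells, at 113.7 CPM in PS-MP and 142.5 CPM in control, against 196.2 and 253.6 CPM in other low-Inhba cells. Slc38a3, a glutamine transporter of the same list, was also found less often than in other low-Inhba cells. It had a UMI in 36.8% of PS-MP and 45.6% of control Amh-positive cells, against 57.7% and 64.1% of other low-Inhba cells and 39.5% and 24.9% of Inhba-high cells.

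Among genes with at least 50 CPM in a population, apart from the rule's own, the ones that stood furthest above both comparison populations were Agtr2, Pdpn, Susd4, Cntn4, Stra6, Wnt4, Espn, Gstm6, Tmem184a, Fgfbp3, Pcsk6 and Itga6. Agtr2 encodes the type 2 receptor for angiotensin II. It stood at 51 CPM in PS-MP and 71.3 CPM in control Amh-positive cells, against 8.8 and 9.52 CPM in other low-Inhba cells and 1.58 and 1.16 CPM in Inhba-high cells. It came from a minority of the cells, since 16.6% of PS-MP and 18% of control Amh-positive cells had an Agtr2 UMI and the highest cells held 21 and 39 UMIs. In stromal cells an Agtr2 UMI was found in 2.46% (PS-MP) and 1.47% (control). Pdpn, the membrane glycoprotein podoplanin, was 4.71-fold above the other low-Inhba cells in the PS-MP library and 3.38-fold above them in the control library. Itga6, the alpha chain of a laminin receptor, reached 454.3 CPM in PS-MP and 515.9 CPM in control Amh-positive cells, against 154.3 and 194.3 CPM in other low-Inhba cells. Endothelial cells of the libraries also held Itga6 at 414.5 CPM (PS-MP) and 346.1 CPM (control). Pcsk6, a convertase that cleaves precursors of TGF-beta family ligands, stood at 203.4 CPM in PS-MP and 244 CPM in control Amh-positive cells, and at 70.5 and 91.5 CPM in other low-Inhba cells. Espn, an actin-bundling protein, was 3.5-fold and 2.91-fold above the other low-Inhba cells.

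By the same rule, the genes furthest below both comparison populations were Bmp2, Itga2, Plod2, Adamts5, Mgarp, Mpped2, Crabp2, Crim1, Lrrtm3, Rcn3, Mef2c and Grem1. Bmp2, a ligand of the BMP family, stood at 7.7 CPM in PS-MP and 10 CPM in control Amh-positive cells, against 67.5 and 69.3 CPM in other low-Inhba cells and 50.7 and 53.1 CPM in Inhba-high cells. Grem1, a secreted BMP antagonist, stood at 10.3 and 7.82 CPM in PS-MP and control Amh-positive cells, and at 173 and 654.9 CPM in Inhba-high cells. Both genes were lower in the Amh-positive cells of both libraries. Plod2, which hydroxylates collagen lysines, stood at 295.7 CPM in PS-MP and 266.1 CPM in control Amh-positive cells, against 1010 and 931.7 CPM in other low-Inhba cells. The collagen receptor chain Itga2 was at most 0.287 times its level in either comparison population. Foxo1, a transcription factor of growing-follicle granulosa cells, was not among the genes at least 2-fold below both comparison populations. It was lower than in other low-Inhba cells, at 410.3 and 585.7 CPM in PS-MP and control Amh-positive cells against 1043 and 1287 CPM.

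**Figure D1:**
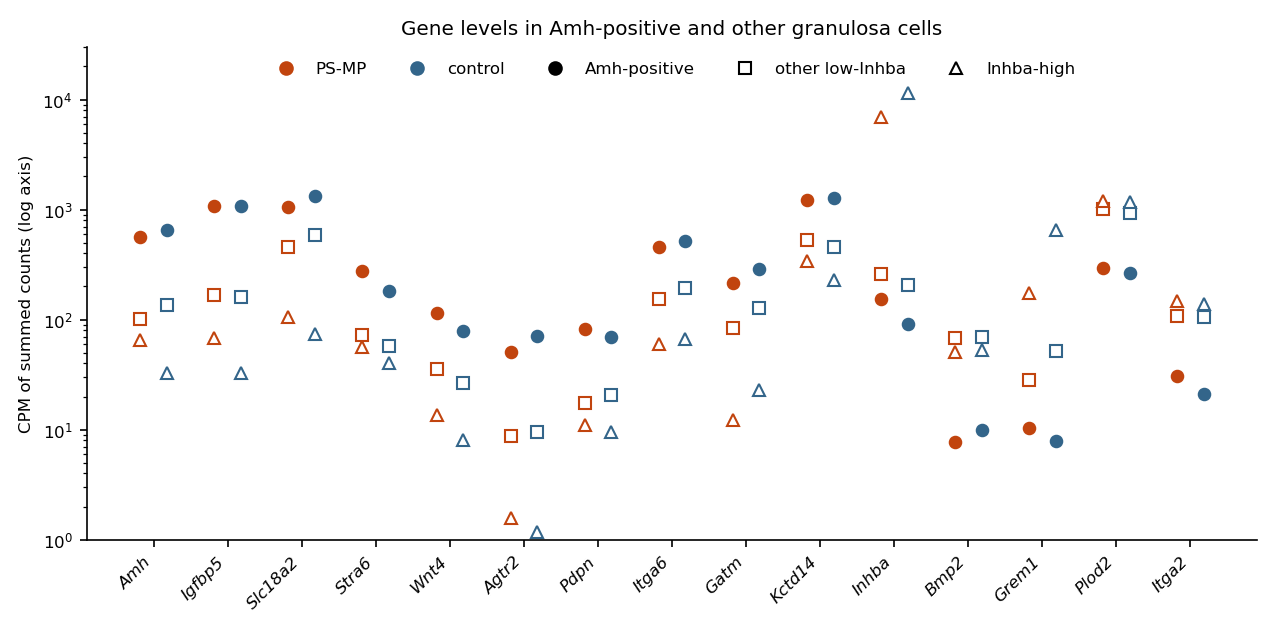
Levels of 15 genes in summed counts (CPM, log axis) in Amh-positive cells (filled circles), other low-Inhba cells (open squares) and Inhba-high cells (open triangles), with the PS-MP library left of the control library. Amh, Igfbp5 and Inhba were used by the rule. Slc18a2 stands at 1047 CPM in PS-MP and 1317 CPM in control Amh-positive cells and Grem1 at 10.3 and 7.82 CPM.

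Amh-positive cells made up 2.89% (2.63% to 3.17%) of the PS-MP and 4.48% (4.15% to 4.82%) of the control cells retained, a ratio of shares of 0.646 (0.57 to 0.73). Among cells that passed the Inha and Cyp11a1 limits they made up 4.73% (4.3% to 5.19%) in the PS-MP and 6.91% (6.42% to 7.44%) in the control library. With 1 library per group, the treatment and the mice or follicles sampled cannot be told apart in such a share. Cells that met the Amh, Igfbp5, Inhba and Cyp11a1 limits but exceeded the mitotic limit numbered 241 of 668 in the PS-MP library (36.1%, 32.4% to 39.9%) and 315 of 980 in the control library (32.1%, 29.2% to 35.2%), and these intervals overlapped. They are called dividing Amh-positive cells below.

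Between the libraries, most genes of the Amh-positive cells lay close together. Of 7465 genes that reached 20 CPM in a library, 59 (0.79%) passed 1.5-fold with the higher level in PS-MP cells and 100 (1.34%) with the lower. The counting interval of each of the 159 lay clear of a ratio of 1. At the summed depth of these cells the 20 CPM and 1.5-fold limits fixed that outcome, so it adds nothing to the counts. The median ratio of genes at 20 CPM in both libraries was 1. Of the 59 higher genes, 56 lay on the same side in the other low-Inhba cells and 24 in the Inhba-high cells. Of the 100 lower genes, 91 lay on the same side in the other low-Inhba cells and 57 in the Inhba-high cells. Over all 7465 genes the median log2 ratio was -0.009 in each of these 2 populations, so the genes lay about evenly on both sides of 1. The counts in the Inhba-high cells were not far from such an even split. At the same limit 23 genes (0.316%) were higher and 22 (0.302%) lower in the other low-Inhba cells, and 28 (0.381%) were higher and 104 (1.41%) lower in the Inhba-high cells. Lists of genes are counted below at 1.2-fold, over the members that reached 20 CPM, which are called measured.

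**Figure D2:**
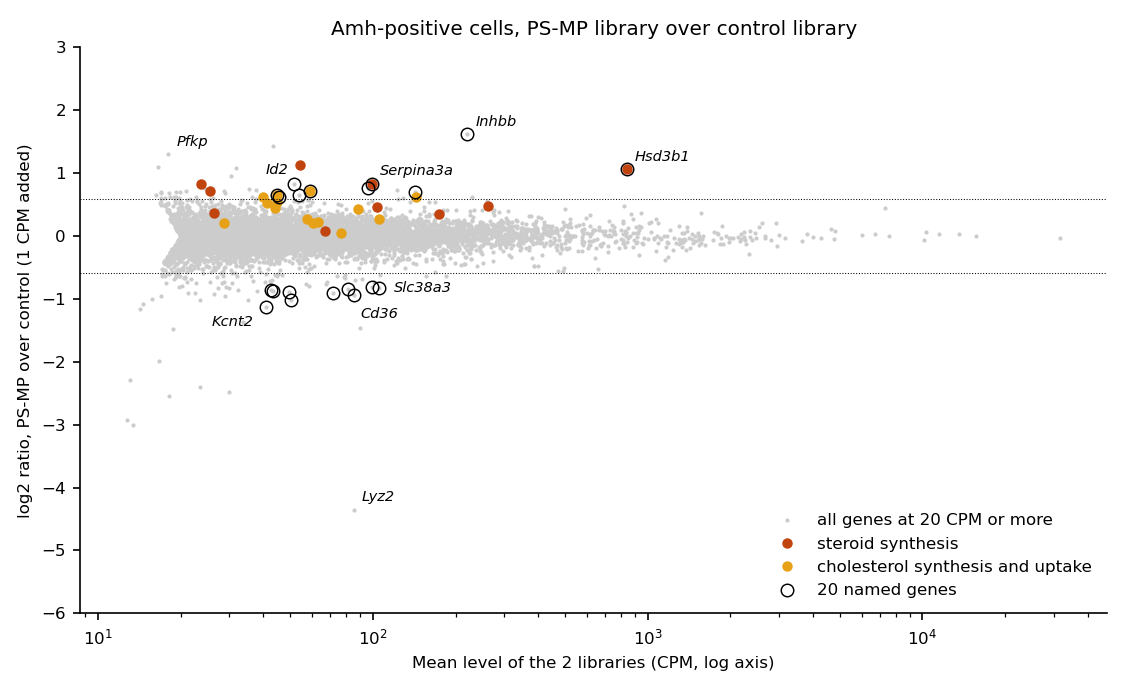
Log2 ratio of PS-MP over control (1 CPM added to both) against mean level (CPM, log axis) for the 7465 genes at 20 CPM or more in Amh-positive cells. Dotted lines mark 1.5-fold. Inhbb, at a ratio of 3.08, and Hsd3b1, at 2.09, stand above the dotted lines, and Lyz2, a macrophage gene at 7.04 CPM in PS-MP and 163.1 CPM in control cells, stands far below them.

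The genes of the inhibin family are known to pair as subunits. Inha encodes the alpha chain of both inhibins, Inhba and Inhbb encode the beta chains of inhibins and activins, and Fst encodes follistatin, which binds activin. Inhbb had the highest ratio of all genes that the naming rule could take, at 333.3 CPM in PS-MP and 108.2 CPM in control Amh-positive cells, a ratio of 3.08 (2.83 to 3.35). A UMI of Inhbb was found in 51.3% of PS-MP and 33.8% of control cells, and after thinning in 36.2% of PS-MP and 18.9% of control cells. The stromal, endothelial and macrophage cells held Inhbb at 11.9 to 37.7 CPM (PS-MP) and 15.5 to 39.2 CPM (control), without a higher level in the PS-MP library. The excess was uneven across the cells: at least 3 UMIs of Inhbb were found in 27.4% of PS-MP and 11.3% of control cells, and the highest cells held 86 and 61 UMIs. Inhba and Inha were limited by the rule and are given without comparison, Inhba at 153.5 CPM in PS-MP and 92.1 CPM in control cells and Inha at 8403 CPM in PS-MP and 6164 CPM in control cells. Fst lay within 1.2-fold, at 537.2 and 489.3 CPM in PS-MP and control cells. Tgfbr3, the betaglycan co-receptor through which inhibin blocks activin receptors, stood at 46.2 CPM in PS-MP and 69.2 CPM in control cells, a ratio of 0.667 (0.566 to 0.783). The activin receptors Acvr2a and Acvr2b and the transducers Smad2 and Smad3 had ratios between 0.896 and 1.08, and Fstl1, a follistatin-like secreted protein, had one of 1.38 (1.13 to 1.67). Of the 10 measured genes of this list, 4 were at least 1.2-fold higher and 1 was lower, beside 8.45% and 9.59% of all genes. The 4 include Inha and Inhba, which the rule limited, so the count only describes the cells.

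Inhbb differed in direction between populations. In dividing Amh-positive cells it stood at 636.1 CPM in PS-MP and 148.1 CPM in control, a ratio of 4.3. In cells with Amh but without Igfbp5 the ratio was 1.62, and in other low-Inhba cells it was 1.33. In the Inhba-high cells, where the gene is abundant, Inhbb stood at 1866 CPM in PS-MP and 2517 CPM in control, a ratio of 0.741. The difference between populations was not tested. Split by depth at 9058 and 12398 UMIs per cell, the Amh-positive cells gave Inhbb ratios of 1.48 in the shallowest, 3.29 in the middle and 4 in the deepest cells. Split by Amh at 444.8 and 725.9 CPM, Inhbb stood at 342.7, 286.3 and 385.2 CPM in PS-MP cells of low, middle and high Amh, against 127.1, 108.6 and 86.8 CPM in control cells.

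Steroid synthesis starts with the entry of cholesterol into mitochondria and its cleavage by Cyp11a1, after which Hsd3b1 turns pregnenolone into progesterone and Cyp19a1 turns androgens into oestrogens. Of 10 measured genes of the list, Cyp11a1 of the rule included, 9 were at least 1.2-fold higher and 0 lower in PS-MP Amh-positive cells, beside 8.45% and 9.59% of all genes. The median log2 ratio was 0.59, beside 0 for all genes and -0.16 for the same list in Inhba-high cells. Hsd3b1 stood at 1133 CPM in PS-MP and 543.3 CPM in control Amh-positive cells, a ratio of 2.09 (2 to 2.17). It was found in 90.6% of PS-MP and 79.8% of control cells, and after thinning in 82.4% of PS-MP and 60.3% of control cells. Stromal, endothelial and macrophage cells held it at 354, 79.5 and 104.1 CPM (PS-MP) and 293, 57.8 and 84 CPM (control), all under the Amh-positive cells of the same library. The excess of Hsd3b1 was present at every depth, with ratios of 1.77, 1.87 and 2.39 from the shallowest to the deepest cells, and at every level of Amh.

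Some steroidogenic genes stood at like levels in other cell types. Fdx1, the ferredoxin that passes electrons to Cyp11a1, stood at 127.3 CPM in PS-MP and 71.4 CPM in control Amh-positive cells, a ratio of 1.78 (1.58 to 2.01), while endothelial cells held it at 98.4 CPM (PS-MP) and 45.1 CPM (control). Cyp11a1, which the rule limited, stood at 75.2 CPM in PS-MP and 33.9 CPM in control cells, under the 114.4 CPM (PS-MP) and 40.2 CPM (control) of endothelial cells, and no difference was read from it. Whether free RNA contributed to these 2 genes was not tested. Without Cyp11a1 and Fdx1, a choice made after the data were seen, 7 of 8 measured genes of the list were higher and 0 lower, with a median log2 ratio of 0.47. Fdxr, the reductase that feeds Fdx1, had a ratio of 1.38 (1.23 to 1.55), and Hsd17b1, which reduces oestrone to oestradiol, one of 1.39 (1.3 to 1.5). Cyp19a1 was scarce, at 30.6 CPM in PS-MP and 16.8 CPM in control cells, a ratio of 1.82 (1.42 to 2.33). In Inhba-high cells, its main site, Cyp19a1 had a ratio of 0.407. Scarb1, the receptor for high-density lipoprotein, had a ratio of 1.28 (1.17 to 1.39), and Stard4, a carrier of cholesterol within the cell, one of 1.67 (1.32 to 2.11). Hsd17b7, at 68.8 CPM in PS-MP and 65.1 CPM in control cells, was the 1 measured gene of the list within 1.2-fold. Theca markers, a list that holds Hsd3b1, summed to 1394 CPM in PS-MP and 840.7 CPM in control Amh-positive cells, with Insl3 at 0 in both. The luteal markers summed to 333.3 CPM in PS-MP and 253.4 CPM in control, and the part of either class in the result was not tested.

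Cholesterol, the substrate of steroids, is made from acetyl-CoA by a chain of enzymes whose genes are switched on together by SREBP2 when sterols run low, in mammals with the factor NF-Y at CCAAT boxes. Of 14 measured genes of cholesterol synthesis and uptake, 10 were at least 1.2-fold higher and 0 lower in PS-MP Amh-positive cells, beside 8.45% and 9.59% of all genes. The median log2 ratio was 0.44, against -0.24 for the same genes in Inhba-high cells. It was 0.19 without the sub-cluster of 26 PS-MP and 2 control cells described below, and 0.09 with the 4 larger sub-clusters weighted alike. The proximal promoters of 3 genes are shown because their genes act at the entry of the chain (Hmgcs1), at lanosterol (Cyp51) and just after it (Msmo1), and were among the higher ones. The sequences are the 250 bases upstream of the RefSeq start in GRCm38.p6, written 5′ to 3′ on the gene's strand, at chr13:119690101-119690350 (plus strand) for Hmgcs1, chr8:64733579-64733828 (minus strand) for Msmo1 and chr5:4104698-4104947 (minus strand) for Cyp51. Capitals mark CCAAT or its reverse complement ATTGG and, in Hmgcs1, CACCCCA, and no capital run overlaps another.
Hmgcs1: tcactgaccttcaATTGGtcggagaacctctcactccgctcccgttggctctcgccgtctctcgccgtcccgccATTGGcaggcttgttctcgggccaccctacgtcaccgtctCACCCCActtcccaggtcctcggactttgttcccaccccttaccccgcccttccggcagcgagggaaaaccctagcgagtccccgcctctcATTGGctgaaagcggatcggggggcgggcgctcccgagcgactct
Msmo1: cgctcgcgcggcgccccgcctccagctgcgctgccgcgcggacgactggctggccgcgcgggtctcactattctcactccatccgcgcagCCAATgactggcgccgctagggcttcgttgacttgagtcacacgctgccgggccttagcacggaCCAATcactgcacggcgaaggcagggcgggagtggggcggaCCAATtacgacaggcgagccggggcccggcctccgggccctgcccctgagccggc
Cyp51: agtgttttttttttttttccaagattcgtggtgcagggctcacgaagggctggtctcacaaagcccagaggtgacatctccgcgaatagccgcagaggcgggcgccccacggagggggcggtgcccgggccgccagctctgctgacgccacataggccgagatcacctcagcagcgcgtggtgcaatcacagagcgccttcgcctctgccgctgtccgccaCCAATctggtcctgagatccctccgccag

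The CCAAT box was common in these promoters. On either strand it lay within 250 bases upstream in 11 of the 11 list genes that the promoter table holds, out of 18 listed, against 37.5% of all 27025 genes in the table. The sterol-element letters CACCCCA were in 2 of the 11 genes (18.2%), against 7.64% of all genes, and AAGGTCA, which nuclear receptors bind, was in 2 (18.2%), against 4.7%. Of the 10 steroid synthesis genes in the table, out of 15 listed, 7 (70%) held CCAAT, 0 held CACCCCA and 1 held AAGGTCA (10%). A match shows only that the letters are there.

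Over all Amh-positive cells, Msmo1, Cyp51 and Hmgcs1 were higher in the PS-MP library. Msmo1, a sterol oxidase that removes methyl groups after lanosterol, stood at 173.7 CPM in PS-MP and 113.2 CPM in control Amh-positive cells, a ratio of 1.53 (1.39 to 1.69). Cyp51, the lanosterol demethylase, stood at 73.9 CPM in PS-MP and 44.5 CPM in control cells, a ratio of 1.66 (1.42 to 1.94). Hmgcs1, which makes HMG-CoA, stood at 101.6 CPM in PS-MP and 75.2 CPM in control cells, a ratio of 1.35 (1.19 to 1.53). Each interval lay clear of 1, and stromal, endothelial and macrophage cells held Msmo1 at no more than 42.2 CPM. Within the sub-clusters led by Hspa1b, Ccnb2, Car4 and Ccn2, Msmo1 had ratios of 1.44, 1.27, 0.769 and 1.17. Those of Cyp51 were 1.27, 1.3, 1.09 and 0.761, and those of Hmgcs1 1.47, 0.971, 1.03 and 1.11. The interval lay clear of 1 for Msmo1 in those led by Hspa1b and Ccnb2, for Cyp51 in that led by Ccnb2 and for Hmgcs1 in that led by Hspa1b. The other intervals included 1. Dhcr7, a reductase near the end of the chain, had a ratio of 1.58 (1.32 to 1.88). Across the alternative settings given below, the lowest ratio was 1.13 for Cyp51 and 1.15 for Dhcr7. Srebf2, which encodes SREBP2 itself, had a ratio of 1.04 (0.906 to 1.18).

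Beside these lists, Serpina3a, a serine protease inhibitor, stood at 120.7 CPM in PS-MP and 70.8 CPM in control Amh-positive cells, a ratio of 1.71 (1.51 to 1.92). Split by depth, its ratios were 1.7, 1.66 and 1.84 from the shallowest to the deepest cells. Within the sub-clusters led by Hspa1b, Ccnb2, Car4 and Ccn2 they were 0.902 (0.682 to 1.19), 1.68 (1.39 to 2.04), 1.82 (1.2 to 2.73) and 1.07 (0.586 to 1.82). The Serpina3a ratio was 0.92 after thinning to 4000 UMIs, when the rule was applied anew and 130 PS-MP and 235 control cells met it. Epb41l1, which ties membrane proteins to the spectrin skeleton, had a ratio of 1.55 (1.31 to 1.85).

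**Figure D3:**
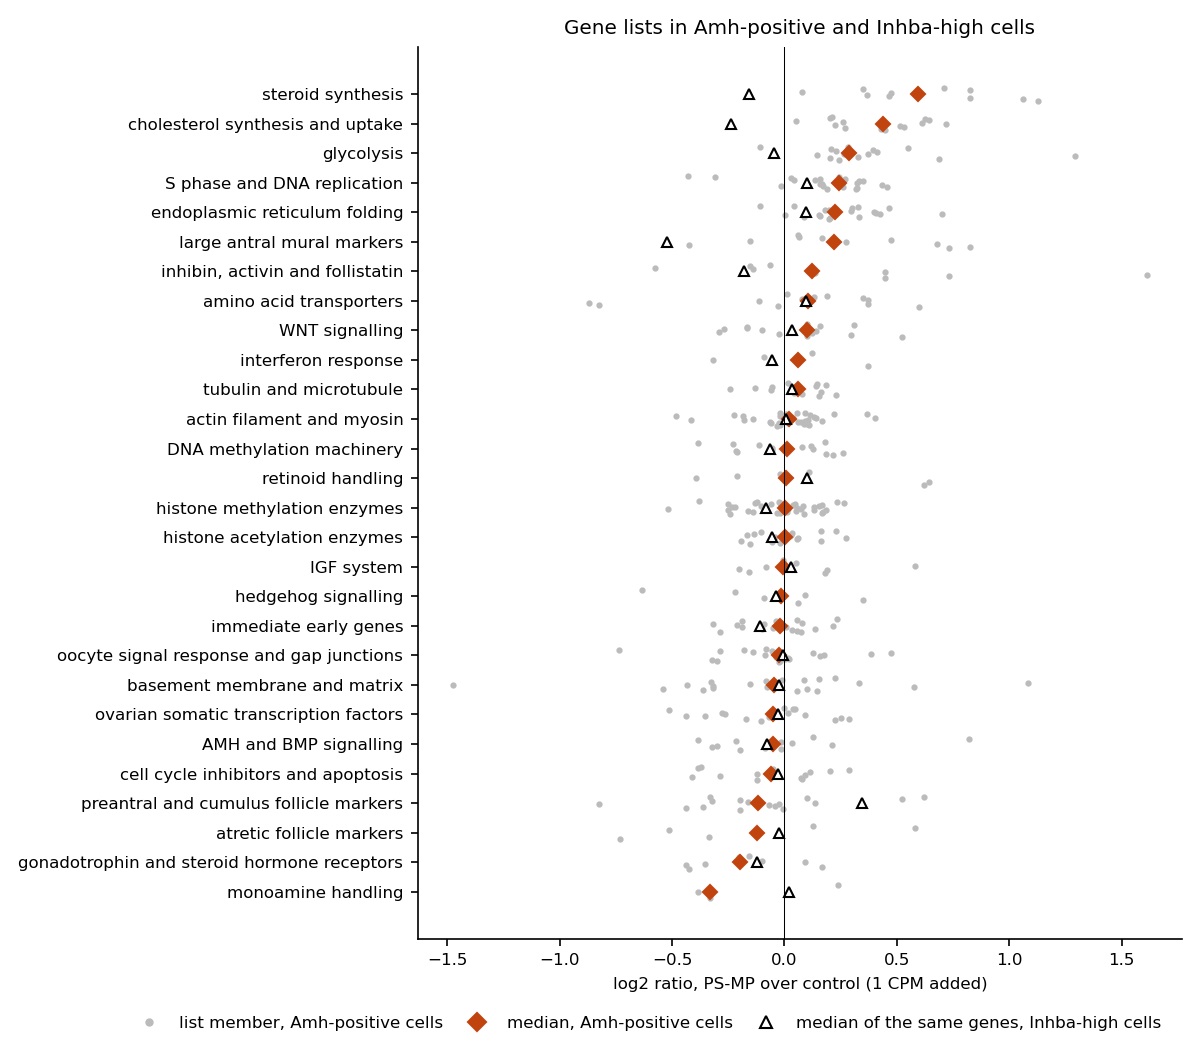
Log2 ratio of PS-MP over control (1 CPM added to both) for the measured genes of 28 lists in Amh-positive cells (grey dots), with the list median in Amh-positive cells (diamonds) and of the same genes in Inhba-high cells (open triangles). Steroid synthesis has the highest median, 0.59 in Amh-positive cells and -0.16 in Inhba-high cells.

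Glycolysis breaks glucose down to pyruvate and lactate, which granulosa cells are known to supply to the oocyte. Of 16 measured genes, 10 were at least 1.2-fold higher and 0 lower in PS-MP Amh-positive cells, beside 8.45% and 9.59% of all genes. The median log2 ratio was 0.29, but 0.12 without the sub-cluster of 26 PS-MP and 2 control cells. It was -0.02, 0.09, 0.12 and 0.29 within the sub-clusters led by Hspa1b, Ccnb2, Car4 and Ccn2. Ldha, the lactate dehydrogenase subunit, stood at 309.4 CPM in PS-MP and 210.8 CPM in control cells, a ratio of 1.47 (1.37 to 1.58), and Aldoa, the aldolase, at 1068 CPM in PS-MP and 826.2 CPM in control cells, a ratio of 1.29 (1.24 to 1.34). The highest ratio was that of Pfkp, a phosphofructokinase, at 25.9 CPM in PS-MP and 10 CPM in control cells, a ratio of 2.59 (1.93 to 3.5). Ldhb, the other lactate dehydrogenase subunit, had a ratio of 0.928 (0.868 to 0.993). In dividing Amh-positive cells the median of the same list was 0.54, and in Inhba-high cells it was -0.05.

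Proteins bound for secretion fold in the endoplasmic reticulum. Of 21 measured folding genes, 9 were at least 1.2-fold higher and 0 lower, beside 8.45% and 9.59% of all genes. The median log2 ratio was 0.22 over all Amh-positive cells. It was -0.02, 0.2, 0.25 and 0.29 within the sub-clusters led by Hspa1b, Ccnb2, Car4 and Ccn2. Sdf2l1, a component of a chaperone complex, stood at 176.3 CPM in PS-MP and 108 CPM in control Amh-positive cells, a ratio of 1.63 (1.48 to 1.8), and it had a ratio of 1.57 in Inhba-high cells as well. Manf, a secreted stress-response factor, had a ratio of 1.34 (1.27 to 1.41), and the chaperone Hspa5 one of 1.15 (1.12 to 1.18). Of 23 measured S-phase and replication genes, 9 were at least 1.2-fold higher and 2 lower, beside 8.45% and 9.59% of all genes. The median log2 ratio was 0.24, but 0.03 with the 4 larger sub-clusters weighted alike, within which it was 0.09, 0.04, 0.05 and -0.07. The helicase subunit Mcm4 had a ratio of 1.37 (1.25 to 1.51) and Pcna, the sliding clamp, one of 1.25 (1.17 to 1.32), while the transcription factors Myc and Mycn had ratios of 0.806 (0.736 to 0.883) and 0.738 (0.626 to 0.868).

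The preantral and cumulus markers differed in direction. Of 16, 2 were at least 1.2-fold higher and 5 lower in PS-MP Amh-positive cells, beside 8.45% and 9.59% of all genes, with a median log2 ratio of -0.12, and the same genes had a median of 0.35 in Inhba-high cells. Stra6 stood at 279 CPM in PS-MP and 181.3 CPM in control cells, a ratio of 1.54 (1.42 to 1.66), and Wnt4 had a ratio of 1.44 (1.28 to 1.62). Slc18a2 went the other way, at 1047 CPM in PS-MP and 1317 CPM in control cells, a ratio of 0.795 (0.768 to 0.823). Split by Amh, Slc18a2 stood at 932.9, 1110 and 1146 CPM in PS-MP cells of low, middle and high Amh, against 1256, 1318 and 1384 CPM in control cells, so it was lower in PS-MP cells at every level of Amh. Maoa, a monoamine oxidase, had a ratio of 1.18 (0.969 to 1.45). Of 14 genes listed for monoamine handling 3 were measured, of which 0 were at least 1.2-fold higher and 2 were lower, beside the same shares of all genes. Gatm had a ratio of 0.738 (0.683 to 0.796) and Col18a1 one of 0.777 (0.697 to 0.866). Within the sub-cluster led by Car4 and Gatm, which held most Gatm counts with 41 PS-MP and 124 control cells, Gatm went the other way, at 1664 CPM in PS-MP and 1305 CPM in control cells, a ratio of 1.27 (1.17 to 1.39).

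Of 12 measured genes of AMH and BMP signalling, 1 was at least 1.2-fold higher and 3 lower, beside 8.45% and 9.59% of all genes, with a median log2 ratio of -0.05. Amhr2 had a ratio of 0.99 (0.928 to 1.05), and the SMAD transducers Smad1, Smad4 and Smad5 and the receptor Bmpr1a lay between 0.942 and 1.16. The inhibitory Smad7 had a ratio of 0.857 (0.709 to 1.03). Id2, a transcriptional inhibitor induced by BMP signals, was the higher one, at 66.4 CPM in PS-MP and 37.2 CPM in control cells, a ratio of 1.79 (1.51 to 2.1). Macrophage cells held Id2 at 663 CPM (PS-MP) and 536.3 CPM (control). Id1, of the same family, had a ratio of 0.758 (0.603 to 0.948) and Id3 one of 1.09 (0.98 to 1.22), so the 3 related genes differed in direction. Bmpr1b and Bmpr2, receptors for BMP and oocyte-derived ligands, had ratios of 0.798 (0.717 to 0.887) and 0.813 (0.766 to 0.862).

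Of 9 measured receptors of gonadotrophins and steroids, 0 were at least 1.2-fold higher and 3 were lower in PS-MP Amh-positive cells, beside 8.45% and 9.59% of all genes. Fshr, the receptor for follicle-stimulating hormone, stood at 104.2 CPM in PS-MP and 140.3 CPM in control cells, a ratio of 0.743 (0.666 to 0.828). Esr2, the main oestrogen receptor of granulosa cells, stood at 168.2 CPM in PS-MP and 214.9 CPM in control cells, a ratio of 0.783 (0.717 to 0.853). Among 18 measured transcription factors of the ovarian soma, Foxo1 had a ratio of 0.701 (0.663 to 0.74) and Gata4 one of 1.22 (1.15 to 1.29), while Foxl2, which maintains granulosa identity, had one of 0.93 (0.876 to 0.988).

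The WNT, retinoid and IGF counts that follow stand beside 8.45% of all genes higher and 9.59% lower. Of 14 measured WNT genes, 3 were at least 1.2-fold higher and 2 lower, with a median log2 ratio of 0.1. Sfrp1, a secreted WNT antagonist, had a ratio of 1.25 (1.02 to 1.52), and Fzd2, a receptor, one of 1.24 (0.947 to 1.62). The receptor chain Lrp6 had a ratio of 0.816 (0.727 to 0.916) and Ctnnb1, which encodes beta-catenin, one of 1.12 (1.06 to 1.17). Tcf7, a transcription factor at the end of the pathway, had a ratio of 0.828 (0.722 to 0.947), and the other measured members, Wnt6, Fzd3, Lrp5, Lgr4, Znrf3, Tcf7l1, Tcf7l2 and Nkd1, lay between 0.889 and 1.11. Of 7 measured genes of retinoid handling, Stra6 and Crabp2 were at least 1.2-fold higher and Dhrs3, which reduces retinal to retinol, was lower, at 0.761 (0.683 to 0.846). Aldh1a1, which oxidises retinal to retinoic acid, had a ratio of 0.863 (0.777 to 0.958), and the reductase Rdh11 and the receptors Rara and Rxrb lay within 1.2-fold. Crabp2, a binding protein that carries retinoic acid to the nucleus, stood at 65.7 CPM in PS-MP and 41.8 CPM in control cells, a ratio of 1.57 (1.34 to 1.85). Of 10 measured genes of the IGF system, Igfbp4 alone passed 1.2-fold, with a ratio of 1.52 (1.2 to 1.92) at 30.8 CPM in PS-MP and 20.3 CPM in control cells. Igf1 and its receptor Igf1r had ratios of 1.14 (1.07 to 1.2) and 0.897 (0.847 to 0.95). The insulin receptor Insr, Igf2r, Irs1, Irs2, Igfbp2 and Igfbp7 lay between 0.865 and 1.14.

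Among the genes with the lowest ratios, several encode transporters and channels. Kcnt2, a potassium channel subunit, stood at 25.3 CPM in PS-MP and 56.6 CPM in control Amh-positive cells, a ratio of 0.447 (0.361 to 0.55). Cd36, a receptor for fatty acids and thrombospondin, stood at 58.3 CPM in PS-MP and 112.8 CPM in control cells, a ratio of 0.516 (0.448 to 0.593). Slc38a3, a glutamine transporter of cumulus cells, stood at 76.1 CPM in PS-MP and 135.4 CPM in control cells, a ratio of 0.562 (0.496 to 0.635). All 3 were also lower in the other low-Inhba cells, with ratios of 0.709, 0.782 and 0.841. The calcium exchanger Slc8a1 had a ratio of 0.525 (0.45 to 0.611) and Slc7a5, a carrier of large neutral amino acids, one of 0.539 (0.442 to 0.654). Tdrd5, Efl1, Anxa3, Tmtc1 and Prss23 lay between 0.484 and 0.563. Cd36, Efl1 and Slc38a3 were among the leading genes of the sub-cluster led by Ccn2, with 18 PS-MP and 97 control cells. In the sub-clusters led by Hspa1b, Ccnb2, Car4 and Ccn2, Slc38a3 had ratios of 0.7405 (0.559 to 0.977), 0.581 (0.487 to 0.69), 2.49 (0.9115 to 6.61) and 0.863 (0.631 to 1.16). Those of Cd36 were 0.782 (0.56 to 1.09), 0.607 (0.485 to 0.7555), 1.64 (0.989 to 2.67) and 0.653 (0.457 to 0.909). The part of this mix of cells was not tested.

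Macrophage RNA moved with the lower genes. The 8 macrophage or monocyte markers summed to 28.8 CPM in PS-MP and 257.1 CPM in control Amh-positive cells, and none was at 0. Lyz2, a macrophage lysozyme, made up most of the control sum, with 32 UMIs in PS-MP and 1272 UMIs in control cells, of which 1179 (92.7%) lay in 5 control cells. Macrophages held Cd36 at 732.6 CPM (PS-MP) and 813.7 CPM (control). Without the cells of the sub-clusters led by macrophage or stromal genes, the ratio of Cd36 was 0.518, close to that over all cells. Among other classes, oocyte markers summed to 7.04 CPM in PS-MP and 31.8 CPM in control cells, with Bmp15 and Zp3 at 0 in the PS-MP library, stromal markers to 332.2 CPM in PS-MP and 298.7 CPM in control, and endothelial markers to 31.4 CPM in PS-MP and 18.9 CPM in control. The pericyte sum was 34.7 CPM in PS-MP and 53 CPM in control, and the surface epithelial sum 67.3 and 62.5 CPM in the same order. The T or NK sum was 1.1 CPM in PS-MP and 5.13 CPM in control, and the red blood cell sum 20.5 CPM in PS-MP and 12.6 CPM in control. The granulosa sum was 11946 CPM in PS-MP and 9784 CPM in control. Apart from the macrophage removal just given, the part of these classes in the results was not tested.

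The study's title speaks of the cytoskeleton and of epigenetic regulation, and those lists were close to all genes. Of 37 measured actin and myosin genes, 2 were at least 1.2-fold higher and 2 lower, with a median log2 ratio of 0.02, and of 14 tubulin genes 0 passed the limit in either direction. Of 14 measured genes of DNA methylation 1 was higher and 1 lower. Of 36 histone methylation enzymes 1 was higher and 3 lower, and of 18 histone acetylation enzymes 1 was higher and 0 lower. None of these shares exceeded the 8.45% higher or the 9.59% lower among all genes. Setd7, a lysine methyltransferase, had the lowest ratio of these lists, 0.693 (0.566 to 0.843), at 31.4 CPM in PS-MP and 45.4 CPM in control cells. Tmsb4x, thymosin beta 4, which binds free actin, stood at 323 CPM in PS-MP and 451.3 CPM in control cells, a ratio of 0.716 (0.673 to 0.761), and Rhob, a small GTPase, at 1762 CPM in PS-MP and 1367 CPM in control cells, a ratio of 1.29 (1.25 to 1.33).

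The closest relatives of the Amh-positive cells gave similar medians. For steroid synthesis the median log2 ratio was 0.65 in dividing Amh-positive cells, 0.53 in cells with Amh but without Igfbp5 and 0.51 in other low-Inhba cells. For cholesterol genes it was 0.52, 0.51 and 0.35 in the same order, and for folding genes 0.34, 0.23 and 0.16. The populations share libraries, so these values are not independent, and the differences between populations were not tested. The Inhba-high cells differed most in these lists, with medians of -0.16 for steroid synthesis, -0.24 for cholesterol and 0.1 for folding. Markers of large antral mural cells, a list that holds the rule's Inhba, had a median of 0.22 in Amh-positive and -0.52 in Inhba-high cells.

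**Figure D4:**
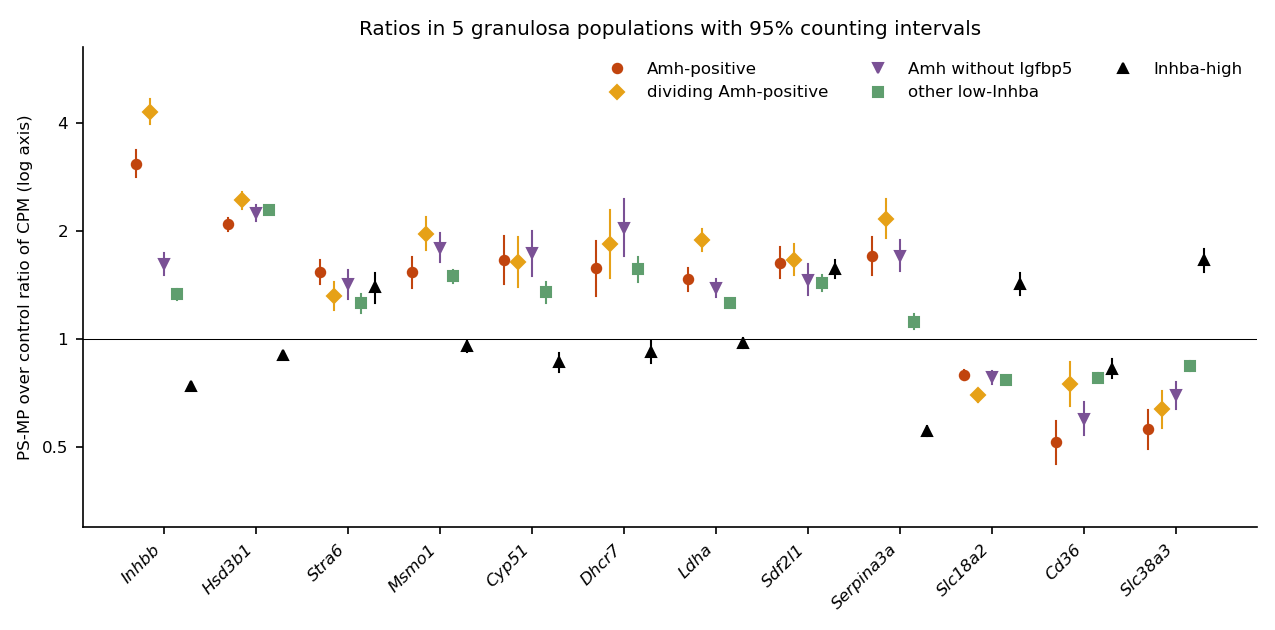
Ratio of PS-MP over control CPM (log axis) with 95% counting intervals for 12 genes in 5 granulosa populations. Inhbb lies at 3.08 in Amh-positive and 0.741 in Inhba-high cells, and Slc38a3 at 0.562 and 1.66.

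The Amh-positive cells were not uniform. Clustered on their own, they fell into 7 sub-clusters, each led by genes that define it and are no finding. Cells led by Hspa1b, Plau and Igfbp5 numbered 178 in PS-MP and 201 in control, and those led by Ccnb2 and Pclaf, genes of the cell cycle that the mitotic limit did not use, 158 and 219. The mitotic limit therefore left cells with cell-cycle genes among the Amh-positive cells. Cells led by Car4 and Gatm numbered 41 and 124, and those led by Ccn2 and Ntng1 18 and 97. A sub-cluster led by Slc16a3, Cox4i2 and Inhbb held 26 PS-MP and 2 control cells, one led by Lyz2 and C1qc 1 and 13, and one led by Col15a1 and Col1a1 5 and 9. These numbers give the depth behind the values that follow. With 1 library per group, a sub-cluster mostly of 1 library cannot be told apart from that library.

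Within the 4 larger sub-clusters, 9, 8, 8 and 7 of the 10 measured steroid genes had ratios above 1, in the order led by Hspa1b, Ccnb2, Car4 and Ccn2. Of all 7465 genes, 3654, 3670, 3543 and 3385 had ratios above 1 in the same order. The 10 genes include Cyp11a1, which the rule limited, and Fdx1, which stood at like levels in endothelial cells. The list median log2 ratio was 0.46 in the sub-cluster led by Hspa1b, 0.33 in that led by Ccnb2, 0.33 in that led by Car4 and 0.3 in that led by Ccn2. Hsd3b1 stood at 1186 CPM in PS-MP and 815.5 CPM in control cells of the first, at 1317 and 527.9 CPM in the second, at 359.4 and 155 CPM in the third and at 1036 and 593 CPM in the fourth. Its excess was thus present in all 4. Cholesterol genes had list medians of 0.32, 0.08, -0.04 and -0.03 in the same order. Inhbb had ratios of 1.37 (1.13 to 1.66), 2.94 (2.6 to 3.33), 2.03 (1.13 to 3.58) and 0.959 (0.576 to 1.52), so its interval included 1 in the last. Stra6 was higher in the PS-MP cells of the first and second, with ratios of 1.39 and 1.35, and its interval included 1 in the others. Slc18a2 had ratios of 0.924 (0.873 to 0.977), 0.76 (0.716 to 0.806), 0.564 (0.506 to 0.626) and 0.921 (0.795 to 1.06).

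**Figure D5:**
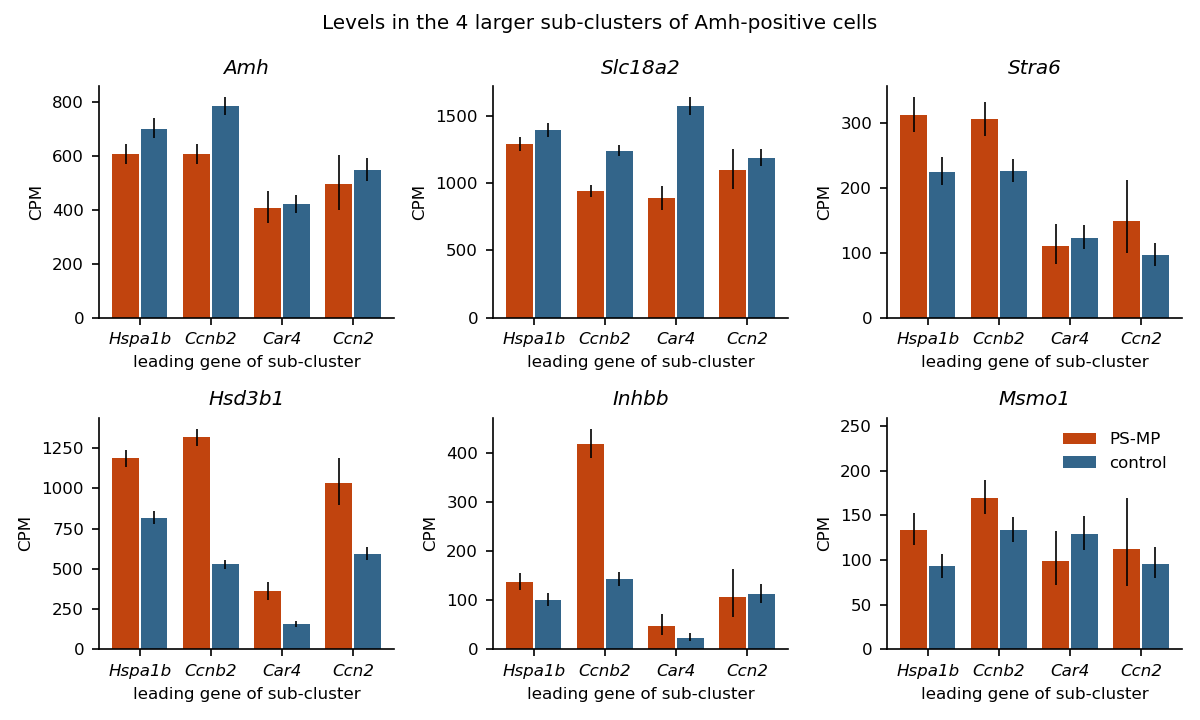
Levels of 6 genes (CPM of summed counts, axis from 0) in the 4 larger sub-clusters of Amh-positive cells, named by their leading gene, with PS-MP bars left of control bars. Black lines are exact Poisson 95% intervals of the counts. Hsd3b1 is higher in PS-MP cells of each sub-cluster, and Inhbb stands at 418.5 CPM in PS-MP and 142.3 CPM in control cells of the one led by Ccnb2.

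Values were also taken without the sub-cluster led by Slc16a3, Cox4i2 and Inhbb, whose leading genes also included Pfkp, Serpina3a and Stard4. This sub-cluster was picked for having Inhbb among its leading genes and was mostly of PS-MP cells. A lower Inhbb ratio without it was therefore fixed by the choice. Pfkp of the glycolysis list and Stard4 of the steroid list also led it, so those medians were not free of the choice. Without these cells, the Inhbb ratio was 2.38 and the Hsd3b1 ratio 2.08. The median of steroid synthesis was then 0.39, that of cholesterol genes 0.19 and that of glycolysis 0.12, each more than 1.5 times below its value over all Amh-positive cells. With the 4 larger sub-clusters weighted alike, Inhbb had a ratio of 1.88 and Hsd3b1 one of 1.86, and the medians were 0.47 for steroid synthesis, 0.09 for cholesterol genes, 0.15 for glycolysis and 0.03 for S-phase genes. These settings were chosen after the data were seen.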

How the data were processed

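The deposited files hold, per the file headers, whole-number counts of molecules (UMIs) per gene and cell for 1 PS-MP and 1 control library of mouse ovary, and per the labels' protocols the cells were captured on BD Rhapsody. GRCm39 and Seurat are named in the submitters' processing notes without a role, and no source used here names the aligner, the counter or the cell calling. The PS-MP library held 145474989 UMIs in 15056 barcodes and the control library 160257194 UMIs in 15373. The limits on genes and mitochondrial counts left 14770 and 14853 cells. No cell type annotation was used, and strand use in counting is not known.

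Counts were summed over the Amh-positive cells of each library and scaled to CPM. Ratios carry exact conditional binomial intervals, and shares carry Clopper-Pearson intervals, both at 95%. Past the limit means 1.5-fold between libraries, or 2-fold between populations, with at least 20 CPM in a library or population. These are limits of size and not tests, which 1 library per group does not allow. List medians are of log2 ratios with 1 CPM added. Other cell classes were taken from marker counts in cells under 500 CPM of Inha. Doublets were called with scrublet in scanpy 1.11.5 at an expected rate of 0.05 and kept. Sub-clusters came from Leiden clustering (leidenalg 0.10.2) at resolution 0.5 on 30 principal components of 2000 variable genes with 15 neighbours. Python 3.11.15, numpy 2.4.6, scipy 1.17.1 and matplotlib 3.10.9 were used, and the calculations were tested on simulated data.

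Genes were named by rule. These were the 10 highest and 10 lowest ratios between libraries, and the 12 highest and 12 lowest against the comparison populations, at 50 CPM or more. Both sets left out unnamed models, ribosomal, mitochondrial and haemoglobin genes and the genes of the rule. Only the set between libraries also left out genes under 0.1 times their level in a class of other cells. Up to 6 members of each gene list, and the members of the AMH, inhibin, IGF, WNT and retinoid lists, were also open to naming. Genes named outside these, such as Srebf2, Ldhb and Lyz2, were chosen after their values were seen. Some genes open to naming are not reported here. The cells, the lists and the rules were all chosen with earlier results of these data known. Promoters came from RefSeq in GRCm38.p6, another build than the files', and no coordinate of the files was used. Amh has no promoter in the table. Alternatives changed the Amh, Igfbp5, Inhba, mitochondrial and CPM limits, doublets, depth, weights, scaling and pseudocount.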

Additional observations from a re-analysis of the deposited data

Results flagged for a closer look

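Inhbb, Serpina3a and Slc38a3 lay on opposite sides of 1 in Amh-positive and Inhba-high cells of the same libraries, and the difference between the populations was not tested. Inhbb had a PS-MP over control ratio of 3.08 in Amh-positive cells and 0.741 in Inhba-high cells. Serpina3a had a ratio of 1.71 in Amh-positive cells and 0.556 in Inhba-high cells. It was 0.92 in the smaller set of cells that met the rule after thinning to 4000 UMIs. Within the sub-clusters of Amh-positive cells led by Hspa1b, Ccnb2, Car4 and Ccn2 the ratio was 0.902, 1.68, 1.82 and 1.07. Of the Serpina3a UMIs in PS-MP cells, 172 lay in 26 cells. Slc38a3 had a ratio of 0.562 in Amh-positive cells and 1.66 in Inhba-high cells.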

How the results depend on the processing

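No paired analysis was possible because each group was 1 library. Of 449 values of list medians, 53 moved by over 0.1 and 70, in 16 lists with medians of at most 0.12 from 0, had the opposite sign, among them WNT in 4 of 16 alternatives, amino acid transporters in 3 and inhibin in 1. Of 260 ratios of the 20 genes named between libraries, 41 moved and 1 changed direction. That one was Serpina3a, at 0.9197 in cells thinned to 4000 UMIs. The ratio of shares was 0.5368 with at least 5 Amh UMIs, 0.7333 with at least 1 and 0.5666 after thinning, when 130 PS-MP and 235 control cells met the rule. Between libraries, 63 genes were lower with at least 1 Amh UMI. Without the Igfbp5 requirement 34 were higher and 49 lower, after thinning 630 and 725, at 50 CPM or more 18 and 34, and with no minimum 3318 and 4865. Between populations, 49 genes were higher with at least 5 Amh UMIs and 130 lower after thinning. Without the Igfbp5 requirement 29 were higher and 33 lower, at 50 CPM or more 42 and 41, and with no minimum 435 and 1179. Fewer cells or no minimum admit genes of few molecules, and the cause of the other changes was not tested. Across all alternatives the Inhbb ratio ran from 1.88 to 3.44 and that of Hsd3b1 from 1.73 to 2.26, while the median of steroid synthesis ran from 0.39 to 0.64, of cholesterol genes from 0.09 to 0.5, of glycolysis from 0.12 to 0.38, of folding genes from 0.16 to 0.25 and of S-phase genes from 0.03 to 0.32. Slc38a3 stood at 0.803 after thinning and at 0.78, with Cd36 at 0.726, when sub-clusters were weighted alike. Clustering gave 4 sub-clusters at resolution 0.3 and 9 at 0.8.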

Other observations

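Amino acid transporters of the Amh-positive cells differed in direction. Of 12 measured, 4 were at least 1.2-fold higher and 2 lower in the PS-MP library, beside 8.45% and 9.59% of all genes. Slc38a1, a glutamine transporter, stood at 155.9 CPM in PS-MP and 102.5 CPM in control cells, a ratio of 1.52 (1.37 to 1.69), and Slc7a8, a neutral amino acid carrier, had a ratio of 1.29 (1.21 to 1.39), while Slc38a3 had one of 0.562 and Slc7a5 one of 0.539.

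Of 21 measured genes of oocyte signal response and gap junctions, 2 were higher and 4 lower, against the same shares of all genes. Gja1, the connexin of granulosa gap junctions, stood at 1596 CPM in PS-MP and 1594 CPM in control cells. Fscn1, an actin bundler of cell protrusions, had a ratio of 1.39 (1.33 to 1.45). Hes1, a target of Notch, stood at 75.9 CPM in PS-MP and 126.8 CPM in control cells, a ratio of 0.598 (0.528 to 0.677), but its direction differed between sub-clusters. It stood at 215.2 CPM in PS-MP and 492.5 CPM in control cells of the one led by Car4 and Gatm, and at 96.4 CPM in PS-MP and 72.7 CPM in control cells of the one led by Hspa1b, a ratio of 1.33 (1.05 to 1.67). In those led by Ccnb2 and Ccn2 both ratios were 1.04, with intervals that included 1.

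The counts that follow stand beside 8.45% of all genes higher and 9.59% lower. Of 7 measured markers of atretic follicles 1 was higher and 3 lower, and Itih5, which stabilises the hyaluronan matrix, had a ratio of 0.598 (0.513 to 0.696). Within the sub-clusters led by Hspa1b, Ccnb2 and Car4 its ratios were 0.882, 1.04 and 1.08 with intervals that included 1, and in the one led by Ccn2, of 18 PS-MP and 97 control cells, 0.658 (0.417 to 0.995). Of 14 measured cell cycle inhibitors and apoptosis genes 1 was higher and 4 lower, with Gadd45a, a damage-response gene, at 0.762 (0.647 to 0.895). Of 6 measured hedgehog genes, the ligand Dhh was higher at 1.28 (1.1 to 1.49) and the co-receptor Gas1 lower at 0.635 (0.507 to 0.791). Of 20 measured matrix genes 3 were higher and 7 lower. Timp1, an inhibitor of matrix proteases, stood at 43.5 CPM in PS-MP and 20 CPM in control Amh-positive cells, and at 219.6 CPM (PS-MP) and 116.4 CPM (control) in stromal cells, whose part was not tested. Of 19 measured immediate early genes 0 were higher and 2 lower, and of 5 interferon genes 1 was higher and 1 lower.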
